A study of Homo sapiens with 4 samples.

Results

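Core-binding factor is a DNA-binding complex made of a RUNX protein and the beta subunit encoded by CBFB. Its messenger RNAs, and those of the TLE corepressors that RUNX proteins recruit, were followed in OE33 cells that had been given a miR-223 precursor. The genes were taken by name: every probe annotated on the array to CBFB, RUNX1, RUNX2, RUNX3, TLE1 or TLE3 was included. This gave 12 of 47321 probes, for 6 of 34693 gene names on the array. OE33 is an established line of human esophageal adenocarcinoma, grown in RPMI medium with 15% fetal bovine serum. The miR-223 cells received the pre-miR hsa-miR-223 precursor at 10 nM with a lipofectamin reagent, and the control cells received a negative control pre-miR at 10 nM. All cells were harvested 24 h after transfection, and RNA from each group was read on 2 arrays (Illumina HumanHT-12 v4), described by the submitters as biological replicates. All arrays come from a single cell line, and the miR-223 level reached in the cells was not among the measurements used here.

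RUNX proteins bind DNA through their Runt domain. CBFB does not touch DNA itself: it holds the Runt domain in its DNA-binding form and protects RUNX proteins from degradation, so that all members of the RUNX family share this subunit. RUNX factors activate or repress genes according to the cofactors they recruit, and TLE proteins, the human relatives of fly Groucho, are among the corepressors. RUNX1 is best known from blood formation, RUNX2 from bone formation, and RUNX3 from T cells, sensory neurons and the gastric epithelium. A microRNA lowers the messages that pair with its seed, bases 2 to 8 from its 5′ end. The question was how the RUNX and CBFB messages stand in these cells and whether they differ when miR-223 is raised.

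The transfected agent is shown first because its seed decides which messages it can pair with. Both mature strands of the MIR223 hairpin are given from RefSeq (GRCh38.p14, plus strand), 5′ to 3′, with the seed in capitals. The 3p strand, at chrX:66018937-66018958, is the one usually meant by miR-223, and the 5p strand lies at chrX:66018895-66018916.
hsa-miR-223-3p: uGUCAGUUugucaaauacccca
hsa-miR-223-5p: cGUGUAUUugacaagcugaguu

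The second set of sequences shows the RUNX binding motif in the promoters of the RUNX genes themselves, since RUNX factors are known to bind promoters of RUNX genes. RefSeq promoter windows (GRCh38.p14) ran from 250 bases before to 50 bases after each annotated start. They were searched for ACCACA and for TGTGGT, which is the same motif on the opposite strand. Other forms of the RUNX motif were not searched and are not marked. Of 35116 windows, 13.1% held at least 1 match, 1.29% held at least 2 and 0.0114% held at least 4. The 9 windows of RUNX1, RUNX2, RUNX3, TLE1 and TLE3 included 3 with a match, and CBFB had no window in the set searched. A RUNX2 window held 4 matches, starting at positions -191, -87, 17 and 25 from its annotated start, while the other RUNX2 window held 0. A RUNX3 window held 2, at -131 and -123, and the other RUNX3 window held 0. A TLE3 window held 2, at -42 and -3, and its 2 other windows held 0. The only RUNX1 window and the only TLE1 window in the set also held 0. In the RUNX2 and RUNX3 stretches printed here the matches, in capitals, stand as the same closely spaced pair. The RUNX2 stretch lies at chr6:45328320-45328379 on the plus strand and the RUNX3 stretch at chr1:24965105-24965164 on the minus strand. A match describes these letters and was not tested as a binding site.
RUNX2 promoter stretch: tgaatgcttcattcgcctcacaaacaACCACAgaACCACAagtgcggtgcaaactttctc
RUNX3 promoter stretch: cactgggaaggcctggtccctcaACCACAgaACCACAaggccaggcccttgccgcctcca

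Across the series, median bead signals lay between 114.5 and 118.4 intensity units, with 18036 to 18916 probes detected on each array and a median of 22 beads behind a probe. Of 8 columnar epithelium markers, 6 were detected on all 4 arrays and 1 on none. Log2 differences, miR-223 minus control, were 0.03 for KRT19, 0.02 for EPCAM and -0.10 for CDH1. KRT8 stood at -0.26, with both miR-223 arrays below both control arrays, as for 17.2% of all tested genes. KRT18 stood at -0.38 with overlapping groups, the miR-223 array being the lower at each replicate number, and at 0.05 on its second probe. CLDN4, a tight junction gene of the same list, was named after its value was seen. It stood at 1.05 ± 0.43 (SE; limma unadjusted p = 0.0401, adjusted p = 0.910) with overlapping groups. Its log2 values were 8.28 and 7.23 in miR-223 replicates 1 and 2, against 7.25 and 6.16 in control replicates 1 and 2. Replicate 1 was the higher array in both groups, and the miR-223 array was the higher at each replicate number. Of 7 leukocyte markers, 5 were detected on no array and CD14 on all 4. Of 5 fibroblast markers, 0 were detected on all 4 arrays and 2 on none. Of 4 squamous markers, 1 was detected on all 4 arrays and 3 on none. The log2 difference of CD14 was 0.38, with overlapping groups, and the part of CLDN4 or CD14 in any result was not tested. Each array measured RNA of a whole culture, so fewer transfected cells and a smaller difference per cell cannot be told apart. With 2 arrays a group, array number sets how precise each value can be, and bead errors cover variation within an array only.

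A probe was tested where its detection p was under 0.05 on at least 2 of the 4 arrays, which kept 6 member probes from 5 genes among the 18629 probes tested. CBFB, RUNX1, TLE1 and TLE3 kept 1 probe each, RUNX2 kept 2, and RUNX3 kept 0. With limma adjusted over all tested probes, 0 of the 6 passed an adjusted p of 0.05, as did 0% of all probes. At an unadjusted p under 0.05, 2 of the 6 were lower in miR-223 cells, where 2.78% of all tested probes were lower, and 0 were higher, where 2.67% were. The miR-223 arrays were both below the control arrays for 2 of the 6 (16.8% of all probes) and above them for 1 (16.4% of all probes). One of the 2 lower probes passed the filter only through the control arrays, so its count in that direction is no support. The members were chosen with earlier results of these data known, so these counts are no test of the members. Counts over so few probes describe these arrays only.

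**Figure D1:**
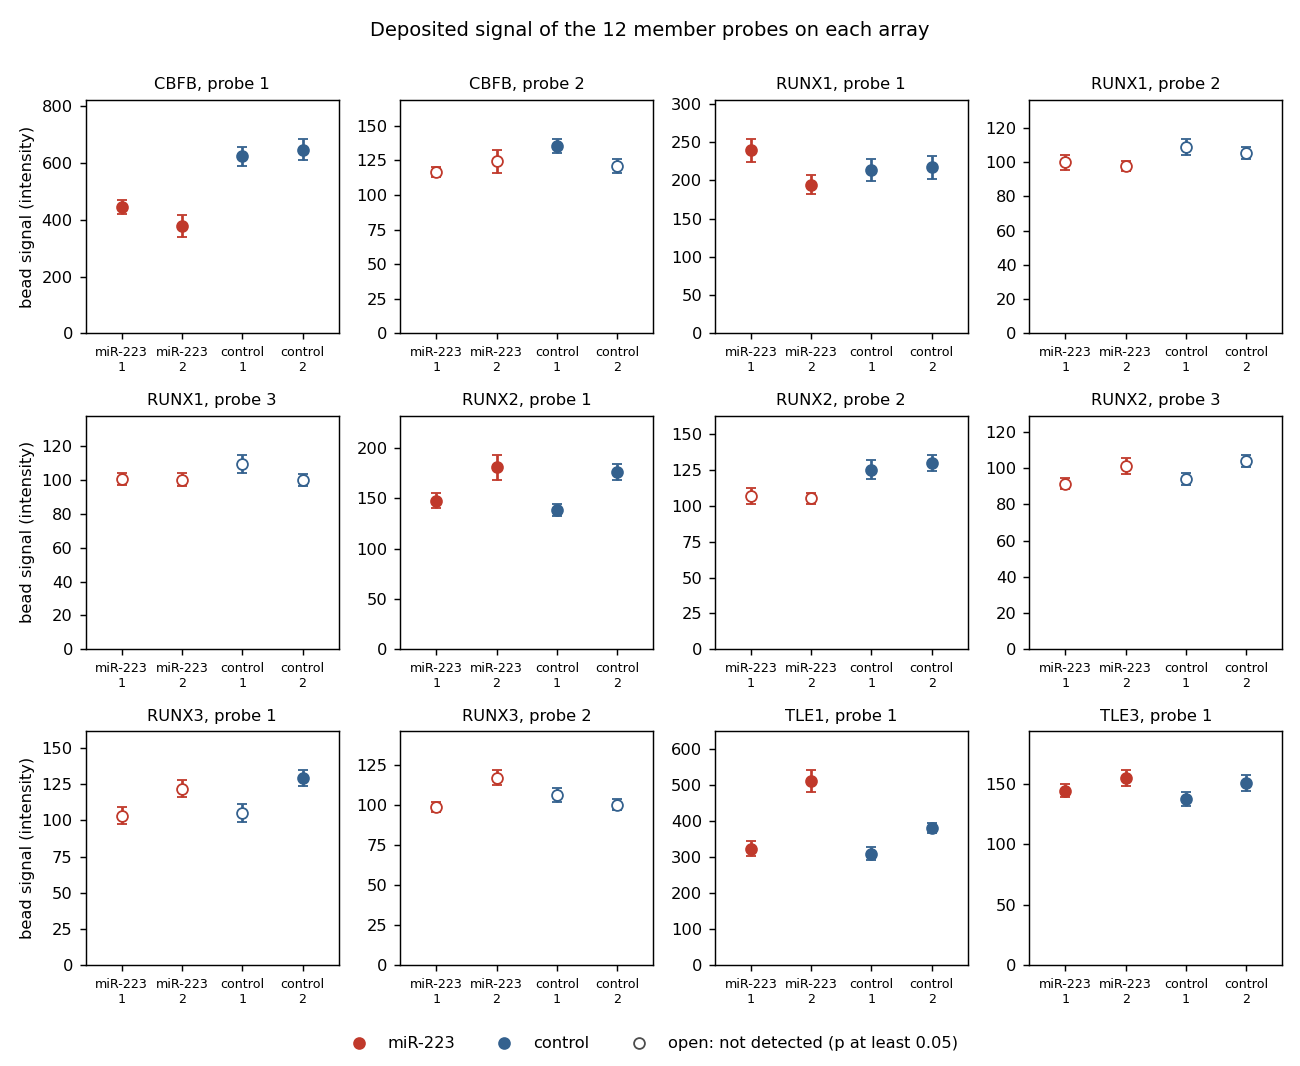
Deposited bead signal (intensity, linear axis from 0) of the 12 member probes on the 2 miR-223 and the 2 control arrays. Points are the mean over beads, bars the standard error over beads, and open points were not detected; for CBFB probe 1 the miR-223 arrays, at 446.0 and 377.6, lie below the control arrays, at 623.5 and 647.6.

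CBFB, the shared beta subunit, had the most negative difference of the 5 tested genes. On its brighter probe (ILMN_1766408) the signal was 446.0 ± 24.8 and 377.6 ± 38.1 intensity units (bead standard error, 22 and 10 beads) in the miR-223 cells. In the control cells it was 623.5 ± 33.6 and 647.6 ± 38.1 (bead standard error, 20 and 13 beads). The miR-223 arrays were both below the control arrays by more than their bead errors, and the probe was brighter than all negative control beads on every array.

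After normalization, CBFB averaged a log2 intensity of 8.31 ± 0.35 in miR-223 cells and 9.09 ± 0.13 in control cells (SD, n = 2 each). The log2 difference, miR-223 minus control, was -0.78 ± 0.25 (SE), a 1.72-fold lower level, with a 95% interval of -1.35 to -0.21. This exceeded the spread within either group. In limma the unadjusted p was 0.0137 and the adjusted p was 0.910, so CBFB did not pass over all probes. Between same-numbered arrays the log2 difference was -0.63 in replicate 1 and -0.93 in replicate 2. Of the 18629 tested probes, 126 had a lower difference than CBFB and its p was number 232 from the smallest. In the authors' deposited table, which averages the probes of a gene, CBFB had a log2 fold change of -0.52, with 81 of 34693 genes lower. These ranks are a description, since the members were chosen with earlier results of these data known.

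The second CBFB probe (ILMN_2399489) was dim and was not tested. It gave 116.6 and 124.3 intensity units in the miR-223 cells, detected on neither array, against 135.6 and 121.0 in the control cells, detected on the first. The groups overlapped there, and with most values at background no direction can be read from this probe.

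RUNX1, the blood-forming member of the family, was detected on all 4 arrays by 1 of its 3 probes. Its bright probe (ILMN_1801504) gave 239.5 ± 15.0 and 194.5 ± 12.2 intensity units (bead standard error) in the miR-223 cells, against 213.8 ± 14.2 and 217.0 ± 14.8 in the control cells. The groups overlapped, with the miR-223 arrays on either side of the control arrays. The log2 difference was 0.02 ± 0.29 (SE; limma adjusted p = 0.999), with a 95% interval of -0.64 to 0.68. The sign rested on single arrays: it was -0.35 without miR-223 replicate 1 and 0.39 without miR-223 replicate 2, and -0.10 without control replicate 2. The 2 other RUNX1 probes, between 97.6 and 109.4 intensity units, were detected on no array.

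RUNX2, the bone-forming member, had 3 probes that differed from each other in what they showed. The brightest (ILMN_1716651) gave 148.0 ± 7.28 and 180.9 ± 12.9 intensity units (bead standard error) in the miR-223 cells, against 138.8 ± 5.75 and 176.6 ± 7.84 in the control cells. The groups overlapped, and replicate 2 was the higher array in both. The log2 difference was 0.21 ± 0.28 (SE; limma adjusted p = 0.999; 95% interval -0.43 to 0.85), and it turned to -0.08 without control replicate 1 and to -0.0098 without miR-223 replicate 2.

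A dimmer RUNX2 probe (ILMN_2377746) was detected on both control arrays and on neither miR-223 array. It gave 107.0 ± 5.37 and 105.2 ± 3.54 intensity units (bead standard error) in the miR-223 cells, against 125.4 ± 6.93 and 130.3 ± 5.58 in the control cells, the last from 9 beads. The groups did not overlap. The fitted log2 difference was -0.61 ± 0.21 (SE; limma unadjusted p = 0.0213, adjusted p = 0.910), and it was -0.26 without background correction and -0.28 with an offset of 50. The probe passed the filter only through the control arrays, so its p and direction are no support. Since the miR-223 level was not above background, the ratio is only a bound. The control mean was 1.06-fold above the lowest detected normalized signal of the miR-223 arrays, and this bound carries no error. The third RUNX2 probe, between 91.4 and 104.0 intensity units, was detected on no array. The difference between the RUNX2 probes was not tested.

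RUNX3, the member studied most in gastric epithelium, was at or near background in these cells. One probe (ILMN_1787461) gave 103.4 and 122.0 intensity units in the miR-223 cells, against 105.2 and 129.2 in the control cells, and was detected on 1 array, control replicate 2. The other gave 98.6 and 116.8 in the miR-223 cells, against 106.1 and 100.1 in the control cells, and was detected on none. No difference was tested, since neither probe was detected on enough arrays to pass the filter. A signal this close to background does not show that the message is absent.

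TLE1, a corepressor that RUNX proteins bind through a motif at their C-terminal end, gave 323.7 ± 20.5 and 510.1 ± 30.7 intensity units (bead standard error) in the miR-223 cells, against 309.6 ± 18.0 and 380.4 ± 14.2 in the control cells. The miR-223 replicate 2 array stood above the other arrays, and the groups overlapped. The log2 difference was 0.33 ± 0.27 (SE; limma adjusted p = 0.999; 95% interval -0.29 to 0.95). Without miR-223 replicate 2 it was 0.0066, and without miR-223 replicate 1 it was 0.66.

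TLE3, a close relative with the same partner, gave 144.5 ± 5.37 and 154.7 ± 6.66 intensity units (bead standard error) in the miR-223 cells, against 137.7 ± 5.52 and 150.6 ± 6.51 in the control cells. These signals overlapped, while after normalization both miR-223 arrays, at log2 5.84 and 5.88, lay above the control arrays, at 5.62 and 5.73. The log2 difference was 0.19 ± 0.22 (SE; limma adjusted p = 0.999; 95% interval -0.31 to 0.68), and 0.07 without background correction. In the authors' deposited table the log2 fold changes were -0.03 for RUNX1, -0.05 for RUNX2, 0.0057 for RUNX3, 0.26 for TLE1 and 0.07 for TLE3.

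**Figure D2:**
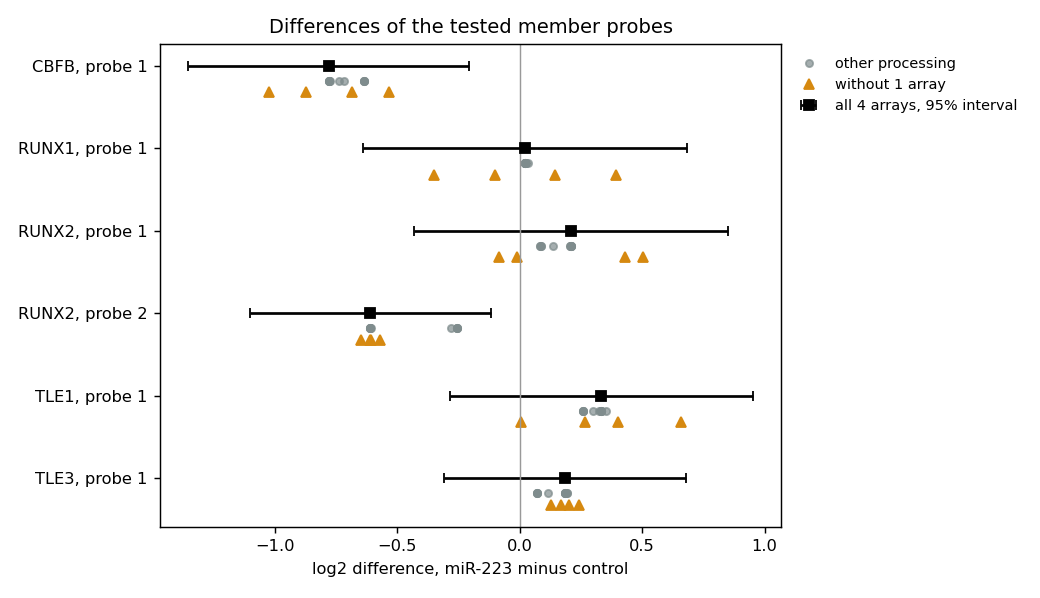
Log2 differences (miR-223 minus control, horizontal axis) of the 6 tested member probes; squares with bars are the values on all 4 arrays with 95% intervals, grey points other processing and triangles the fits without 1 array. CBFB stays below 0 throughout, from -1.02 to -0.53, while RUNX1 and the brightest RUNX2 probe lie on both sides of 0.

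**Figure D3:**
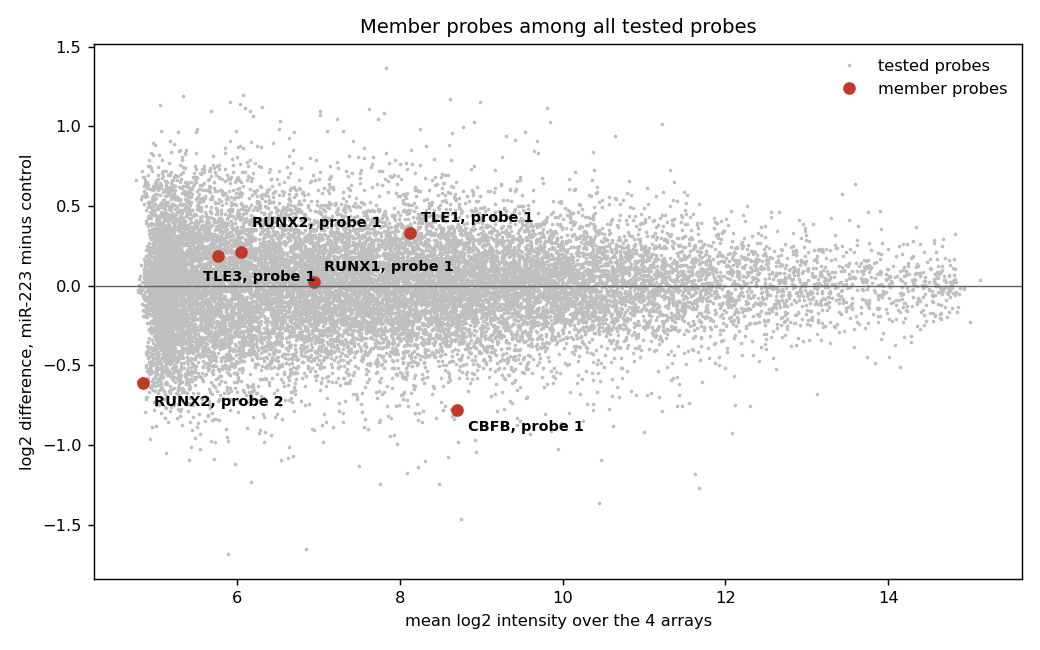
Log2 difference (miR-223 minus control) against the mean log2 intensity for all 18629 tested probes (grey), with the 6 member probes in red. CBFB probe 1, at -0.78, lies below all but 126 of them, and RUNX2 probe 2 lies among the dimmest probes tested.

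The genes around core-binding factor were read from lists by role, each gene on its brightest tested probe. Over all 14521 gene names tested, the median log2 difference was 0.00, with 2.82% lower and 2.6% higher at an unadjusted limma p under 0.05, and no gene passed after adjustment. The groups did not overlap for 17.2% of these genes with the miR-223 arrays below and for 16.3% with them above. Among the other Groucho and ETO family corepressors, 3 of 7 were tested, with a median of -0.25 and 0 at an unadjusted p under 0.05. TLE5, a short family member that lacks the repressor domain, stood at -0.26 ± 0.22 (SE) and its second probe at -0.55, with both miR-223 arrays below both control arrays on the brighter one. TLE4 stood at 0.28 ± 0.29 (SE) and CBFA2T2, an ETO relative, at -0.25 ± 0.24 (SE), both with overlapping groups. Without control replicate 1, TLE4 turned to -0.07, CBFA2T2 stood at -0.06 and the median of the list was -0.07. The other 4 genes of the list were detected on no array.

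Coactivators and corepressors of RUNX had no common direction: of 18 tested of 19, 8 differences were positive and 10 negative, with a median of -0.05 and 0 at an unadjusted p under 0.05. The members with the smallest p were YAP1, the Hippo pathway coactivator that binds RUNX, KAT6A, an acetyltransferase that works with RUNX1, and HDAC4, a deacetylase that restrains RUNX2. YAP1 averaged a log2 intensity of 9.34 ± 0.10 in miR-223 cells and 9.82 ± 0.0066 in control cells (SD, n = 2 each), a difference of -0.48 ± 0.22 (SE; limma adjusted p = 0.912). KAT6A stood at -0.45 ± 0.22 (SE) and HDAC4 at 0.46 ± 0.22 (SE). The groups did not overlap for these 3. Over the whole list this held for 9 of 18 genes. The miR-223 arrays were below for 4 (17.2% of all genes) and above for 5 (16.3% of all genes). The median turned to 0.05 without control replicate 1 and to 0.06 without miR-223 replicate 1.

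Genes that set the stability of RUNX proteins or bind CBFB had differences between -0.30 and 0.34 on their brightest probes, over 15 tested of 17, with a median of 0.05 and 0 at an unadjusted p under 0.05. The median was -0.12 without control replicate 2. CUL5, the scaffold of the ubiquitin ligase that HIV Vif joins to CBFB, stood at 0.34 ± 0.22 (SE). The ubiquitin ligase gene WWP1 stood at -0.30 ± 0.22 (SE). FZR1, an activator of the anaphase-promoting complex, stood at -0.30 ± 0.23 (SE) on the brighter of its 2 tested probes. The other stood at 0.74, so its probes, both dim, disagreed. The brighter probe was detected on 1 of the 2 miR-223 arrays, and its difference was -0.10 without background correction.

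Among DNA-binding partners of RUNX, 21 of 30 were tested, 11 positive and 10 negative, with a median of 0.0021, which was -0.21 without control replicate 2. LEF1, the Wnt pathway factor that assembles with RUNX1 on enhancers, had a fitted difference of -0.64 ± 0.26 (SE; limma unadjusted p = 0.0362, adjusted p = 0.910), the only one of the list under an unadjusted 0.05, where 2.82% of all genes were lower. Its probe was detected on both control arrays and on neither miR-223 array, so it passed the filter only through the control group and its p and direction are no support. The control mean was 1.15-fold above the lowest detected normalized signal of the miR-223 arrays, a bound that carries no error. The fitted difference was -0.30 without background correction and -0.38 without miR-223 replicate 2. ETS1, which binds DNA together with RUNX1, had differences of -0.49 ± 0.25 (SE) on the brighter and -0.17 on the dimmer of its 2 probes. CEBPA, a myeloid factor, stood at 0.47 ± 0.22 (SE). The ETS1 and CEBPA groups did not overlap. Over the whole list this held for 9 of 21 genes. The miR-223 arrays were below for 4 (17.2% of all genes) and above for 5 (16.3% of all genes).

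Of 31 reported RUNX target genes, 12 were tested, 8 positive and 4 negative, with a median of 0.14, and 16 were detected on no array. BCL2L11 encodes the death-promoting protein BIM and is a reported RUNX3 target. BCL2L11 was the only gene of the list at an unadjusted p under 0.05, where 2.6% of all genes were higher. It averaged a log2 intensity of 5.72 ± 0.031 in miR-223 cells and 5.12 ± 0.0081 in control cells (SD, n = 2 each). The difference was 0.60 ± 0.21 (SE; limma unadjusted p = 0.0221, adjusted p = 0.910). It exceeded the spread within either group and was 0.20 without background correction. The control level was dim. The lowest detected normalized signal was 5.07 as a mean over the miR-223 arrays, and that of the control arrays is not given here. CDKN2A, which encodes cell cycle inhibitors, stood at 0.47 ± 0.26 (SE), with a second probe at 0.45. On the brighter probe CDKN2A was 0.20 without miR-223 replicate 2 and 0.75 without miR-223 replicate 1. CCN2, a matrix-associated growth factor gene also activated by YAP1, stood at -0.29 ± 0.21 (SE) and its other probe at 0.06.

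**Figure D4:**
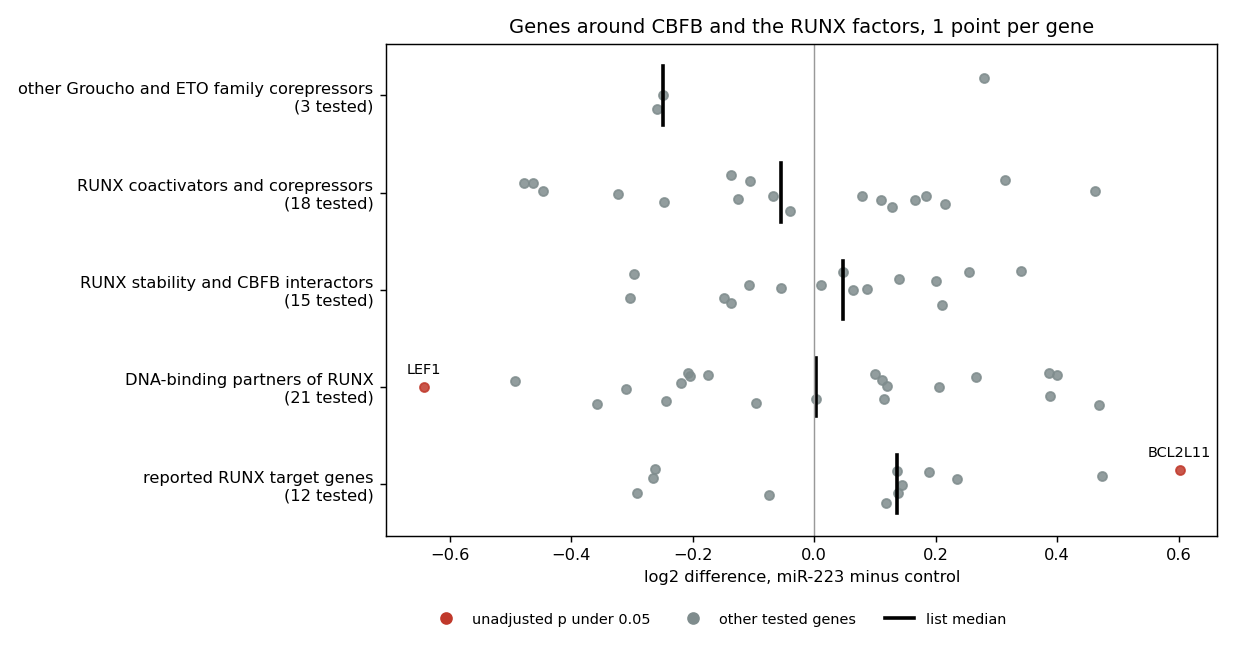
Log2 differences (miR-223 minus control, horizontal axis) of the tested genes of 5 lists, 1 point per gene, with the list median as a black line. BCL2L11 (0.60) and LEF1 (fitted at -0.64, not above background in miR-223 cells) are the 2 genes at an unadjusted p under 0.05, and the list medians lie between -0.25 and 0.14.

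The genes whose pattern over the 4 arrays was most like that of CBFB were found by the root mean square distance between log2 profiles, each centred on its own mean. The nearest were RAC1 at a distance of 0.046, MTHFD1, an enzyme of folate metabolism, at 0.049, CEP41, a centrosomal protein gene, at 0.063, PRELID3B, at 0.068, and PPP2R3A, a regulatory subunit of protein phosphatase 2A, at 0.070. RAC1 averaged a log2 intensity of 11.92 ± 0.28 in miR-223 cells and 12.68 ± 0.19 in control cells (SD, n = 2 each), a difference of -0.76 ± 0.24 (SE), and its other probe stood at -0.60. The differences were -0.75 ± 0.26 (SE) for MTHFD1, -0.79 ± 0.23 (SE) for CEP41, -0.83 ± 0.25 (SE) for PRELID3B and -0.70 ± 0.25 (SE) for PPP2R3A, and limma's adjusted p was 0.910 for each. Without background correction CEP41 stood at -0.49, PRELID3B at -0.29 and PPP2R3A at -0.34, while RAC1 stood at -0.74. PRELID3B was not detected on all 4 arrays, and its lowest log2 value, in miR-223 replicate 2, was 4.78. These genes were chosen for their likeness over 4 arrays, so their differences are a description.

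**Figure D5:**
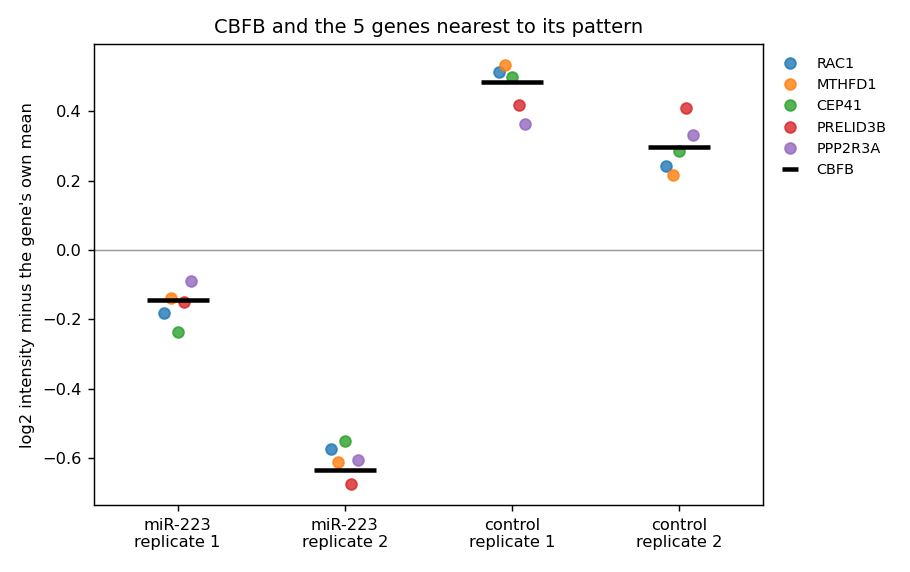
Log2 intensity minus each gene's own mean over the 4 arrays (vertical axis) for CBFB (black bars) and the 5 genes nearest to its pattern (points), by array. In all 6 genes miR-223 replicate 2 is the lowest array and both control arrays lie above both miR-223 arrays.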

How the data were processed

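The authors deposited, per the file headers, a mean bead signal for each probe and array on the linear intensity scale, together with bead standard errors, bead numbers and a detection p-value. The authors also deposited a value table, an intensity on a linear scale that is quantile normalized judging from its values, and a table per gene of log2 values and log2 fold changes. The submitters' processing notes list GenomeStudio, BeadStudio and Partek without saying what each did. Probe positions are not given, since the sources used here state no build for them.

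Bead signals were corrected by normexp on negative controls inferred from the detection p-values (offset 16), quantile normalized and taken to log2 with limma 3.58.1 in R 4.3.3. Offsets draw the differences of dim probes toward 0. Probes with detection p under 0.05 on at least 2 of 4 arrays were tested with limma (lmFit, eBayes, group as the only term). Tests were two-sided, with Benjamini-Hochberg adjustment over 18629 probes and a threshold of 0.05. The estimates were checked on simulated data with added differences larger than those of the members. How often smaller differences would be called was not examined. Intervals use 8.24 degrees of freedom, 6.24 of them from the spread shared by all probes. An exact permutation test of 2 against 2 arrays cannot go below p = 0.333 and was not used. Levels of different probes were not compared.

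Genes on the array were named as in the file, and 8 list genes were updated through RefSeq (GRCh38.p14). Text names all member probes and, from each list other than the cell type markers, genes at an unadjusted p under 0.05 or, where there were fewer than 3, the 3 with the smallest p, plus the 5 genes nearest to CBFB, skipping locus and clone names. The members and lists were chosen with earlier results of these data known. Alternatives were other background, offset, normalization, filter and variance settings, the authors' values, the replicate block and leaving out each array.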

Additional observations from a re-analysis of the deposited data

How the results depend on the processing

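The fits that join the replicate block to another choice were added after seeing the data. Without the block, the number of probes called by limma was 0 under each other background, offset, normalization, filter and variance setting, and 0 to 1 when 1 array was left out; the 1 was VCF1, without control replicate 2 (-4.19, adjusted p = 0.0255, against -1.69 on all 4 arrays). The replicate block alone called 0 probes, and CBFB then stood at -0.78 with an adjusted p of 0.389. Block and variance trend together called 176 probes, among them CBFB (-0.78, limma adjusted p = 0.0260). The block without background correction called 357, with CBFB at -0.63 (limma adjusted p = 0.00523), and the block on the authors' processed values called 402, with CBFB at -0.63 (limma adjusted p = 0.00349). Whether equal replicate numbers mean a shared experiment is not stated in the labels, and deviations of same-numbered arrays correlated at 0.352 across probes. No other member passed in any fit. Of the 5 genes most like CBFB, RAC1 passed in the same 3 fits (limma adjusted p 0.000512 to 0.00484), and MTHFD1 and CEP41 passed in the last 2 of them (0.0121 to 0.0157 and 0.0279 to 0.0338). Over the 13 fits without the block, the adjusted p of CBFB lay between 0.624 and 1.0.

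CBFB was negative in all 17 fits, between -1.02 and -0.53 when 1 array was left out. The differences of RUNX1 lay between -0.35 and 0.39, those of the brightest RUNX2 probe between -0.084 and 0.50, and those of TLE4 between -0.073 and 0.63 when 1 array was left out, so their direction rested on single arrays. TLE1 stayed above 0 but was 0.0066 without miR-223 replicate 2. TLE3 lay between 0.13 and 0.24 when 1 array was left out, and between 0.07 and 0.24 over all 17 fits. The dimmer RUNX2 probe was not above background in miR-223 cells, so its sign in these fits is no sign of stability. The dimmer RUNX2 probe was not tested among probes detected on all 4 arrays. The cause of these changes was not tested. Signal over background limits RUNX3 and the dim probes of CBFB, RUNX1 and RUNX2.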
